A study of Mus musculus with 24 samples.

Results

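The CXC chemokines are small secreted or membrane-bound proteins that guide cells along gradients, and 9 of their genes were followed here across all conditions of the study: Cxcl1, Cxcl2, Cxcl3, Cxcl5, Cxcl9, Cxcl10, Cxcl12, Cxcl14 and Cxcl16. The genes were taken by name, as every probe other than a control spot whose gene name on the array is one of these symbols or an older synonym, and Cxcl3 stood on the array under the older name Gm1960. This gave 11 probes for 9 of the 19504 genes that the array covers, with a pair of probes each for Cxcl12 and Cxcl16. The cells were Ku70-/- mouse embryonic fibroblasts (MEFs), an immortalized line that lacks the Xrcc6 gene product Ku70, a protein of nonhomologous end joining, and every group carried that deletion, the untreated controls included. Bisphenol A (BPA) is a plasticizer and potassium bromate (KBrO3) an oxidizing agent. The arrays fall into 2 sets. The first holds 15 arrays in 5 groups of 3, namely untreated cells, cells given 20 mM KBrO3 for 1 hr and then left to recover for 3 or 23 hr (KBrO3 alone at 4 and 24 hr), and cells co-exposed to 150 µM BPA, which was present for 1 hr before, during and throughout the 3 or 23 hr after the same KBrO3 treatment (co-exposure at 4 and 24 hr). Another 9 arrays form the second set, in 3 groups of 3, namely its own untreated cells and cells kept in 150 µM BPA for 4 or 24 hr according to the labels, an hour less than the study's methods state. Those methods count the 4 and 24 hr from the start of KBrO3 treatment, also for cells given BPA alone. The first set's controls are labeled with the 4 hr time and the second set's with none, so that no control is labeled as a 24 hr sample. The study's methods call the replicates biological, but neither they nor the labels say that the dishes were handled separately, and p-values measure the spread between these arrays only.

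Chemokines of the CXC class are grouped by what they attract. Those with a Glu-Leu-Arg (ELR) motif before the first cysteines, here Cxcl1, Cxcl2, Cxcl3 and Cxcl5, signal through Cxcr2 and recruit neutrophils, and fibroblasts make them when NF-kB is activated by cytokines, Toll-like receptor ligands or stress. Cxcl9 and Cxcl10 lack that motif, are induced by interferons through interferon regulatory factors, often together with NF-kB, and attract T cells through Cxcr3. Cxcl12 is made constitutively by stromal cells and holds Cxcr4-bearing cells in place, Cxcl14 is a constitutive chemokine of epithelia and stroma, and Cxcl16 is a transmembrane chemokine that is shed by proteases and binds Cxcr6.

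The upstream sequences are shown because most of the members that rose with BPA alone at 4 hr share a match to the same NF-kB motif. The 250 bases before the annotated start were read from RefSeq (GRCm38.p6) for the 7 members with an entry. Cxcl5 and Cxcl16 had none. The sequences of 6 of the 7 are printed 5′ to 3′ on the gene's own strand. Capitals mark matches to 4 motifs searched on both strands: NF-kB (GGGAANNNCC), a pair of interferon-response repeats (GAAANNGAAA), AP-1 (TGANTCA) and the TATA box (TATAAA).
Cxcl1, chr5:90890995-90891244, plus strand: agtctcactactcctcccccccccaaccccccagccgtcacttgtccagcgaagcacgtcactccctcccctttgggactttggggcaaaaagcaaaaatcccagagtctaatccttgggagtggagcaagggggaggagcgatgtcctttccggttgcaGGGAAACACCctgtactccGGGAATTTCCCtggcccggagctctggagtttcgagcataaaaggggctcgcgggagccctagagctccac
Cxcl2, chr5:90903649-90903898, plus strand: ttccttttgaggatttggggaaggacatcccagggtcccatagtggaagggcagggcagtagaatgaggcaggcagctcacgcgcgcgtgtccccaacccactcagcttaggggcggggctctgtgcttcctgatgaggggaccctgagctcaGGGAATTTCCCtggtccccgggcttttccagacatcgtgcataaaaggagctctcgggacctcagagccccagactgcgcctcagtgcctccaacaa
Cxcl3, chr5:90785851-90786100, plus strand: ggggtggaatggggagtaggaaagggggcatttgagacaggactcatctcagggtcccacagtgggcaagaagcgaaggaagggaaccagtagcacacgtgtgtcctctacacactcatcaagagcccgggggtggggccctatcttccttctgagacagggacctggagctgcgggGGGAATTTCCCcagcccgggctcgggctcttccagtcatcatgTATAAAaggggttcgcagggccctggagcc
Cxcl9, chr5:92328080-92328329, minus strand: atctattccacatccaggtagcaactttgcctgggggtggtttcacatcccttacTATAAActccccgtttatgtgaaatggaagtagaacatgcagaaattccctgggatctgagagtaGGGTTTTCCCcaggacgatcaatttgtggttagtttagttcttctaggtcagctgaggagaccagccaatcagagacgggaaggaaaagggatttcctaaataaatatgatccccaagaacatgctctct
Cxcl10, chr5:92348890-92349139, minus strand: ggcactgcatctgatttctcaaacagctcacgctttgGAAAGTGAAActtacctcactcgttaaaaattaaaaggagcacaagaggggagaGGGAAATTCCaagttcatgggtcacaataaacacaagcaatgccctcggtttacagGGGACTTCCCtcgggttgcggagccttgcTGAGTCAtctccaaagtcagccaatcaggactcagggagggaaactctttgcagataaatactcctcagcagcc
Cxcl12, chr6:117168285-117168534, plus strand: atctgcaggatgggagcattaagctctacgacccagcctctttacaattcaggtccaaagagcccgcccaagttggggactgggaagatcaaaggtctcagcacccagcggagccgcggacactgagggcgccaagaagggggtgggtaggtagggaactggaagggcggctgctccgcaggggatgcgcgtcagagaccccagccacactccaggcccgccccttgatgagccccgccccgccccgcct

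The NF-kB motif was found in 5 of the 7 members, namely Cxcl1, Cxcl2, Cxcl3, Cxcl9 and Cxcl10, and in 4.94% of all 32851 RefSeq promoters of the same length. Cxcl1, Cxcl2 and Cxcl3 each hold the run GGGAATTTCCC, which matches on both strands with overlap and begins 71, 97 and 73 bases before the start, respectively. Cxcl1 holds a further match, GGGAAACACC, 90 bases before the start. The match of Cxcl9 lies on the opposite strand from 130 bases before the start, and Cxcl10 holds matches from 159 bases and, on the opposite strand, 103 bases before it. Cxcl10 is also the only member here with an AP-1 match, from 74 bases before the start, a motif found in 6.75% of all promoters. The pair of interferon-response repeats was found in Cxcl10, from 213 bases before the start, and in Cxcl14, from 172 bases, against 2.98% of all promoters. TATAAA was found in Cxcl3 and Cxcl9, against 12.4%. None of the 4 motifs is in the window of Cxcl12. These are matches of letters only, and binding was not measured.

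Values are log2 processed signals minus the 75th percentile of the same array, so that 0 is the array's 75th percentile. The share of spots well above background was 57.7% to 68.1% in the first set and 76.4% to 79.4% among the arrays of the second. Over the same 27180 probes the median SD between arrays of a group was 0.106 and 0.318, respectively, so that differences in the second set are known less precisely. The sets were read with different versions of the scanner software. The number of arrays limits the precision of every value below. All 12 fibroblast markers examined were above background on at least some arrays of 7 of the 8 groups, and on co-exposed cells at 24 hr 1 of the 12 was not. Their summed level, in units of the array's 75th percentile, was 1858 to 1971 in the first set's controls, 712 to 799 for KBrO3 alone at 24 hr, 499 to 580 for co-exposure at 24 hr and 707 to 814 in the second set's controls. The summed level of 11 leukocyte markers was 0.365 to 2.25 over all arrays, and Ptprc, the pan-leukocyte gene CD45, was above background on none. The probe for Xrcc6 was above background on all 24 arrays, but whether it lies in the deleted part is not given in the sources used here, so that it is no check of the genotype.

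Against the controls of the same set, 6 of the 9 chemokines rose at 4 hr with BPA alone, 5 with co-exposure and 3 with KBrO3 alone. A member counted as risen or fallen when it moved by more than 1.5-fold and limma gave it a p below 0.05 after Benjamini-Hochberg adjustment across the probes tested. KBrO3 alone and co-exposure at both times were compared with the same 3 control arrays, and BPA alone at both times with the other 3. The 6 with BPA alone include Cxcl2, which was tested in that set only through the BPA groups. With BPA alone at 4 hr no member fell, where 3.06% of 16329 genes rose and 1.64% fell, and the members' median log2 difference was 2.70 against −0.056 for all genes. At 24 hr, 3 rose and 1 fell, against 1.81% and 2.51% of genes, with a median of 0.79 against 0.019. With KBrO3 alone at 4 hr, 3 rose and 1 fell, where 20.9% of 14536 genes rose and 23.1% fell, and at 24 hr none rose and 5 fell, where 12.7% rose and 21% fell. With co-exposure at 4 hr, 5 rose and 2 fell, against 28.1% and 26.6% of genes, and at 24 hr 1 rose and 6 fell, against 15.7% and 23.9%. The members' median was 0.13 for KBrO3 alone and 0.65 for co-exposure at 4 hr, where that of all genes was 0.017 and 0.0055. At 24 hr it was −1.41 and −1.74, where that of all genes was −0.068 and −0.062. The calls for BPA alone were sensitive to the analysis: the 6 at 4 hr became 3 with the study's stricter threshold (Bonferroni-adjusted p below 0.01, where Cxcl3, Cxcl5 and Cxcl9 were lost) or with normexp background correction (where Cxcl2, Cxcl3 and Cxcl9 were lost) and 0 with slide as a fixed block, which leaves 2 residual degrees of freedom, and the 4 at 24 hr became 0 under each of these and in a fit of only the groups compared.

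**Figure D1:**
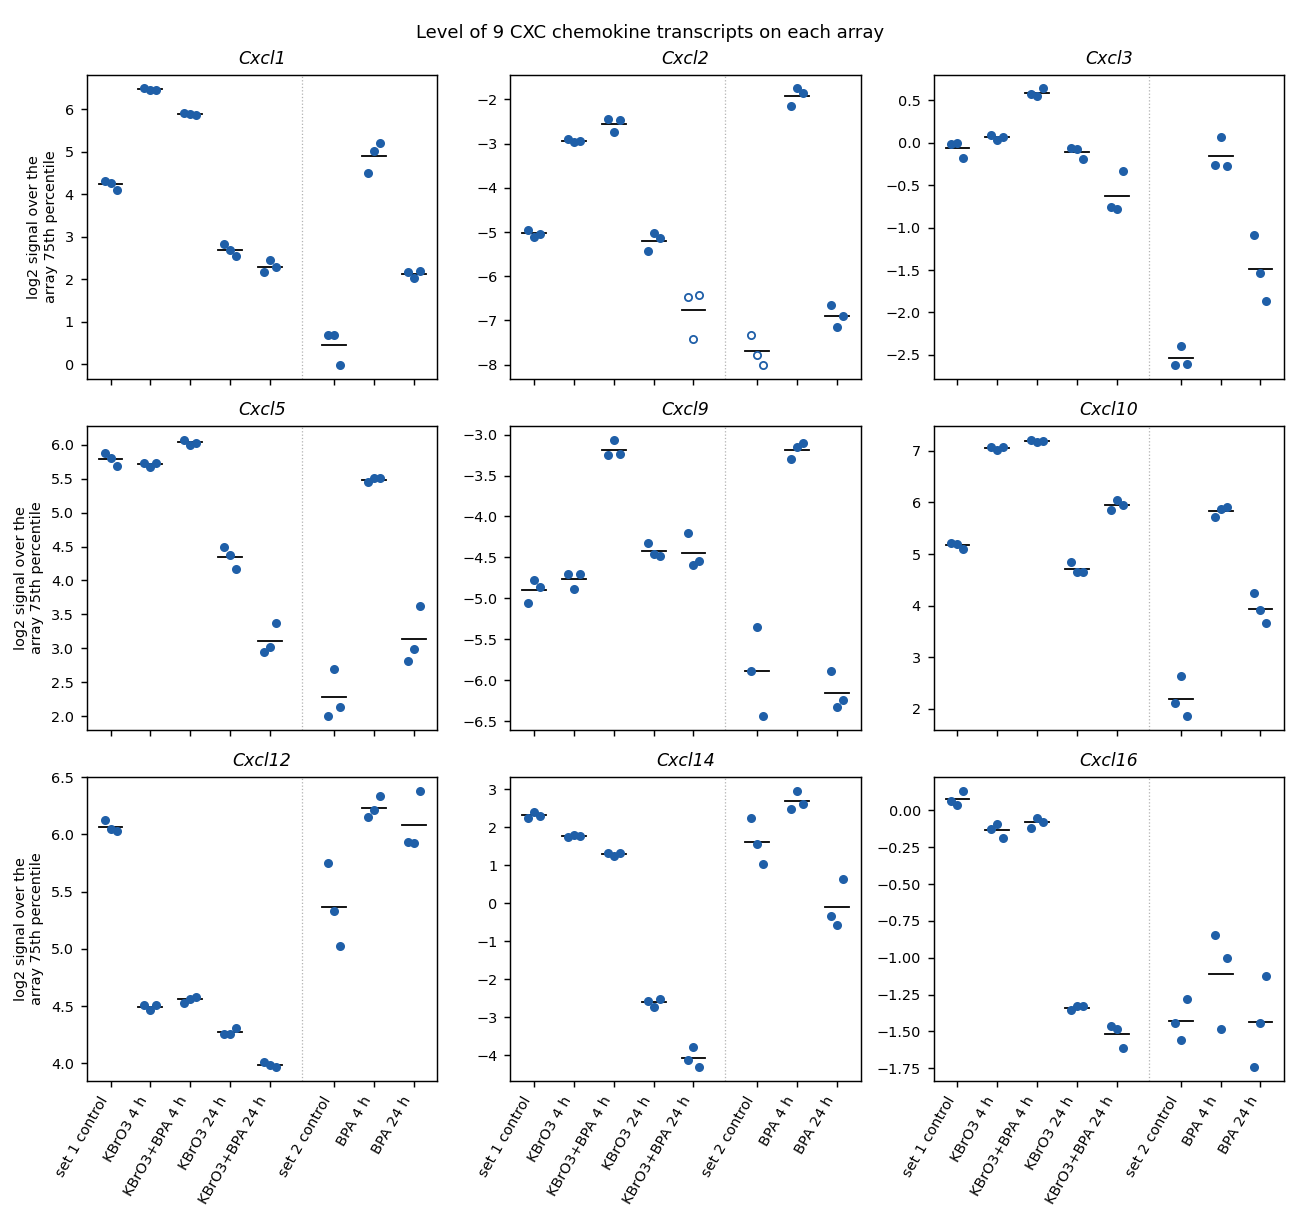
Level of each chemokine on each of the 24 arrays, as log2 signal over the array's 75th percentile (vertical axes, a separate scale per gene), by group (horizontal axis), with points for replicates 1 to 3, a line at the group mean and a dotted line between the array sets. Open points mark groups in which no array was well above background, which is Cxcl2 in co-exposed cells at 24 hr and in the second set's controls. Cxcl1, Cxcl2, Cxcl5 and Cxcl10 started far lower in the second set's controls than in the first set's, and rose with BPA alone at 4 hr.

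Cxcl1, the neutrophil attractant also called KC, rose with all 3 treatments at 4 hr and was lower than control at 24 hr after KBrO3 with or without BPA. The first set's controls read 4.32, 4.27 and 4.11. The arrays of KBrO3 alone read 6.49, 6.46 and 6.46 at 4 hr and 2.82, 2.68 and 2.54 at 24 hr, and those of co-exposure read 5.91, 5.89 and 5.87 at 4 hr and 2.16, 2.45 and 2.28 at 24 hr. None of these 4 treated groups overlapped the controls. The rise at 4 hr was 4.71-fold with KBrO3 alone (log2 difference 2.24 ± 0.083, adjusted p = 1.5e-10) and 3.16-fold with co-exposure (log2 difference 1.66 ± 0.083, adjusted p = 1.8e-09). At 24 hr Cxcl1 was 2.94-fold below control with KBrO3 alone (adjusted p = 9.1e-09) and 3.83-fold below with co-exposure (adjusted p = 8.4e-10). In the second set the controls read 0.69, 0.68 and −0.016, and BPA alone read 4.50, 5.01 and 5.21 at 4 hr and 2.17, 2.02 and 2.19 at 24 hr. All 6 treated arrays were above all 3 controls. The rise was 22-fold at 4 hr (log2 difference 4.46 ± 0.26, adjusted p = 0.00014) and 3.2-fold at 24 hr (log2 difference 1.68 ± 0.26, adjusted p = 0.012).

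Cxcl2, the neutrophil attractant MIP-2, was dim in untreated cells and was higher with every treatment at 4 hr. Its first-set controls read −4.95, −5.10 and −5.03, KBrO3 alone at 4 hr read −2.90, −2.97 and −2.95 and co-exposure at 4 hr −2.44, −2.74 and −2.48. The treated arrays lay above every control, by 4.25-fold for KBrO3 alone (log2 difference 2.09 ± 0.21, adjusted p = 1.9e-06) and 5.57-fold for co-exposure (log2 difference 2.48 ± 0.21, adjusted p = 3.3e-07). With normexp background correction of the raw signal, the value of Cxcl2 at 4 hr turned to −0.16 for KBrO3 alone and fell to 0.11 for co-exposure, so that neither passed, and the values were 1.07 and 1.33 when the lowest spots of each array were first raised to a floor. The Bonferroni threshold did not call the rise with KBrO3 alone. In the second set no control array was well above background, with measured levels of −7.32, −7.77 and −8.00, while BPA alone at 4 hr read −2.15, −1.75 and −1.86. Against the lowest detectable signal of each control array, this was at least 42.8-fold higher (fitted log2 difference 5.78), but 1.84 on the log2 scale with normexp, where the call was lost, and 2.50 with the floor. Cxcl2 entered the second set's test only through the BPA groups, so that no p is given for this rise. At 24 hr BPA alone read −6.66, −7.15 and −6.90, at least 1.35-fold above the same limit (fitted log2 difference 0.79, adjusted p = 0.12), which did not pass. Its direction was not stable, with a lowest value of −0.86 among the alternatives. KBrO3 alone at 24 hr was −0.17 (adjusted p = 0.51) from control, a value of −1.54 that passed with normexp (adjusted p = 0.012), and co-exposed cells at 24 hr were not above background on any array and at least 1.17-fold below control (fitted log2 difference −1.74 ± 0.21, adjusted p = 1.3e-05), a value of −0.48 with normexp and the floor, where the call was lost.

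Cxcl3 and Cxcl5, the remaining ELR members, rose with BPA alone at 4 hr and did not pass with KBrO3 alone at that time. Cxcl3 read −2.62 to −2.40 in the second set's controls and −0.26, 0.071 and −0.27 with BPA alone at 4 hr, a rise of 5.23-fold without overlap (log2 difference 2.39 ± 0.23, adjusted p = 0.0012). Its level with BPA alone at 24 hr was −1.08, −1.54 and −1.86, still above all controls (2.06-fold, adjusted p = 0.045), a call that was lost when any of 8 of the 9 arrays of the set was left out, with log2 differences of 0.84 without BPA 24 hr replicate 1 to 1.12 without control replicate 2 and adjusted p of 0.066 to 0.12. BPA 24 hr replicate 3 was the exception. In the first set Cxcl3 rose with co-exposure at 4 hr, from −0.066 ± 0.10 to 0.59 ± 0.045 (mean ± SD, n = 3; 1.57-fold, adjusted p = 6.6e-05; the call was lost with median scaling, at 0.51, and with Bonferroni adjustment), and KBrO3 alone at 4 hr gave 0.13 (adjusted p = 0.26). At 24 hr it gave −0.047 (adjusted p = 0.7) with KBrO3 alone and −0.56 (adjusted p = 0.0003) with co-exposure, and the latter passed 1.5-fold without control replicate 3 (−0.62) or co-exposure 24 hr replicate 3 (−0.70). Cxcl5, known as LIX, read 2.00, 2.69 and 2.14 in the second set's controls and 5.45, 5.50 and 5.51 with BPA alone at 4 hr, a rise of 9.25-fold without overlap (log2 difference 3.21 ± 0.26, adjusted p = 0.00056). At 24 hr BPA alone gave 0.87 (adjusted p = 0.12). In the first set Cxcl5 read 5.68 to 5.88 in controls, 5.67 to 5.74 with KBrO3 alone at 4 hr and 6.00 to 6.08 with co-exposure at 4 hr, where neither difference passed. It then fell to 4.49, 4.37 and 4.17 with KBrO3 alone at 24 hr and to 2.94, 3.01 and 3.37 with co-exposure. These levels were 2.73-fold (adjusted p = 1.6e-07) and 6.42-fold (adjusted p = 4.2e-10) below control, and neither group overlapped the controls. Cxcl1, Cxcl2 and Cxcl3 are close in sequence, and cross-hybridization of their probes was not tested. The study ranks CXCL3 among its largest rises with BPA alone at 4 hr, by a fold much larger than that of Cxcl3 here. The reason for this gap was not tested.

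Cxcl10, the T cell attractant IP-10, rose with all 3 treatments at 4 hr and was the only member called higher than control at 24 hr in co-exposed cells. The first set's controls read 5.21, 5.20 and 5.10, KBrO3 alone at 4 hr 7.07, 7.02 and 7.07 and co-exposure at 4 hr 7.22, 7.17 and 7.20. The treated arrays were above every control, by 3.67-fold (log2 difference 1.88 ± 0.062, adjusted p = 5.3e-11) and 4.06-fold (log2 difference 2.02 ± 0.062, adjusted p = 2.2e-11). At 24 hr KBrO3 alone read 4.85, 4.65 and 4.65, below all controls but by less than 1.5-fold (log2 difference −0.45, adjusted p = 3.7e-05), whereas co-exposure read 5.86, 6.04 and 5.95, above all controls by 1.71-fold (adjusted p = 2.6e-07). In the second set Cxcl10 read 2.10, 2.63 and 1.86 in controls, 5.71, 5.88 and 5.92 with BPA alone at 4 hr and 4.24, 3.92 and 3.66 at 24 hr. All treated arrays were above all controls, and the rise was 12.5-fold at 4 hr (log2 difference 3.64 ± 0.25, adjusted p = 0.00021) and 3.35-fold at 24 hr (log2 difference 1.74 ± 0.25, adjusted p = 0.0084).

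Cxcl9, the T cell attractant MIG, was dim throughout and rose at 4 hr in the cells that had received BPA. Its level was −5.05, −4.78 and −4.86 in the first set's controls, −4.70, −4.89 and −4.70 with KBrO3 alone at 4 hr, where replicate 2 was not above background, and −3.25, −3.06 and −3.24 with co-exposure at 4 hr. Co-exposed arrays stood above every control and every KBrO3 array, by 3.27-fold over control (log2 difference 1.71 ± 0.11, adjusted p = 1.7e-08), and KBrO3 alone gave 0.13 (adjusted p = 0.29). The second set's controls read −5.88, −5.35 and −6.43 and BPA alone at 4 hr −3.30, −3.15 and −3.10, a rise of 6.51-fold without overlap (log2 difference 2.70 ± 0.28, adjusted p = 0.0014). With normexp correction the co-exposure value for Cxcl9 turned to −0.36 and, with the floor, was 0.77 (adjusted p = 2.3e-06). No 24 hr group differed from its controls by the call used here, with log2 differences of 0.47 (adjusted p = 0.002) for KBrO3 alone, 0.45 (adjusted p = 0.0026) for co-exposure and −0.27 (adjusted p = 0.66) for BPA alone. Scaling each array to its median or quantile normalization carried the first pair of these past 1.5-fold. With normexp the same pair turned to −1.33 (adjusted p = 0.024) and −1.19 (adjusted p = 0.038), which passed as falls.

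**Figure D2:**
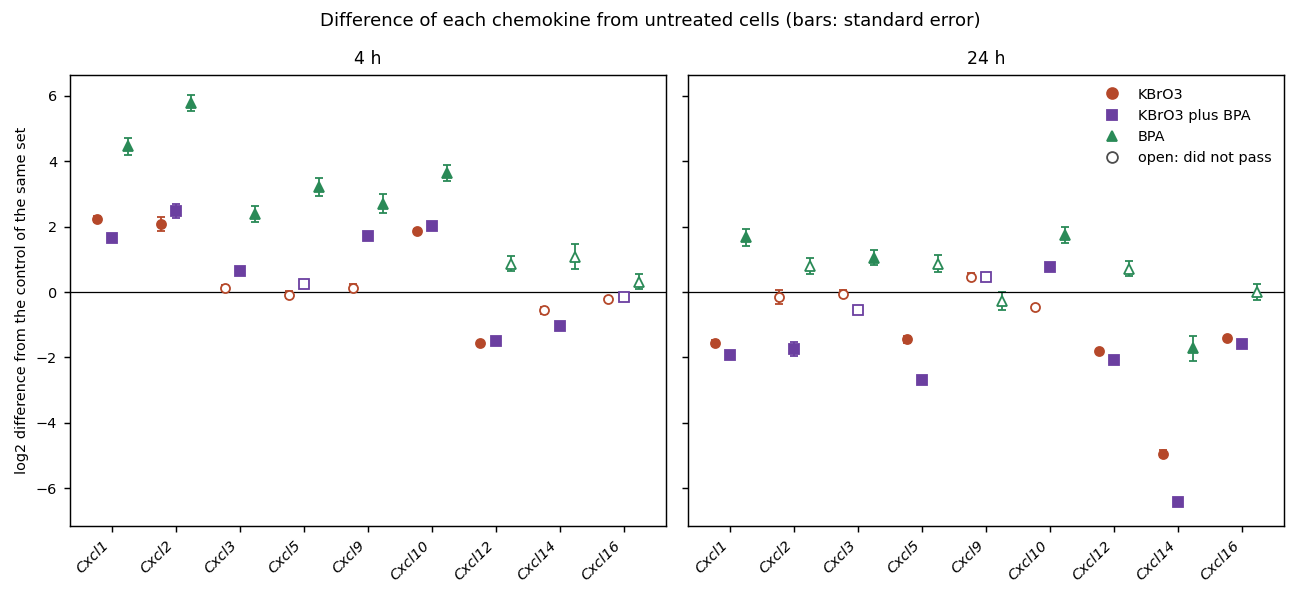
Log2 difference of each chemokine (horizontal axis) from the untreated cells of its own array set (vertical axis) at 4 hr and 24 hr, for KBrO3 alone (circles), co-exposure (squares) and BPA alone (triangles), with bars for the standard error and open symbols where the adjusted p or the 1.5-fold limit was not passed. At 4 hr the BPA triangles of Cxcl1, Cxcl2, Cxcl3, Cxcl5, Cxcl9 and Cxcl10 lie between 2.39 and 5.78, above the KBrO3 and co-exposure symbols of the same genes, and at 24 hr Cxcl14 is lowest with −4.94 after KBrO3 alone and −6.40 after co-exposure.

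Cxcl12, the stromal ligand of Cxcr4 also called SDF-1, fell with KBrO3 with or without BPA at both times and did not pass with BPA alone. Its brighter probe, annotated to transcript variant 2, read 6.12, 6.05 and 6.03 in the first set's controls, 4.51, 4.46 and 4.51 after KBrO3 alone at 4 hr and 4.53, 4.56 and 4.58 with co-exposure at 4 hr. At 24 hr it read 4.25, 4.25 and 4.31 with KBrO3 alone and 4.01, 3.99 and 3.97 with co-exposure. All 12 treated arrays were below all 3 controls. The fall was 2.97-fold (log2 difference −1.57 ± 0.037, adjusted p = 3.2e-12) and 2.85-fold (log2 difference −1.51 ± 0.037, adjusted p = 3.3e-12) at 4 hr and 3.47-fold and 4.22-fold at 24 hr, with adjusted p of 2.9e-12 and 3.9e-13. BPA alone read 6.16, 6.21 and 6.33 at 4 hr and 5.94, 5.93 and 6.38 at 24 hr against 5.75, 5.33 and 5.03 in its controls, differences of 0.86 (adjusted p = 0.077) and 0.71 (adjusted p = 0.14), although no treated array reached down to a control.

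Cxcl14, the constitutive chemokine BRAK, showed the largest fall of the 9 members in the first set. Its controls read 2.26, 2.41 and 2.31, while KBrO3 alone at 24 hr read −2.57, −2.74 and −2.52 and co-exposure at 24 hr −4.13, −3.78 and −4.32. The groups were far apart, with falls of 30.6-fold (log2 difference −4.94 ± 0.11, adjusted p = 6e-12) and 84.6-fold (log2 difference −6.40 ± 0.11, adjusted p = 3.2e-13). At 4 hr KBrO3 alone read 1.76, 1.79 and 1.77, below all controls but by less than 1.5-fold (log2 difference −0.56, adjusted p = 0.0006; without control replicate 1 it was −0.59 and passed), and co-exposure read 1.34, 1.23 and 1.32, a fall of 2.04-fold (adjusted p = 2.6e-06), which the Bonferroni threshold did not call. In the second set the controls were wide apart at 2.25, 1.57 and 1.03, BPA alone read 2.49, 2.97 and 2.61 at 4 hr (1.07, adjusted p = 0.17), and at 24 hr it read −0.34, −0.57 and 0.63, below all controls and 3.27-fold lower (log2 difference −1.71 ± 0.38, adjusted p = 0.045). This last call was lost when any of 7 of the 9 arrays was left out, with differences from −1.73 without control replicate 2 to −1.39 without control replicate 1 and adjusted p up to 0.14. It was kept without control replicate 3 and without BPA 24 hr replicate 3.

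Cxcl16, the transmembrane ligand of Cxcr6, fell at 24 hr after KBrO3. Its brighter probe read 0.061, 0.035 and 0.13 in the first set's controls, −1.36, −1.33 and −1.33 after KBrO3 alone at 24 hr and −1.46, −1.48 and −1.61 with co-exposure at 24 hr. These falls were 2.67-fold (log2 difference −1.41 ± 0.047, adjusted p = 1.5e-10) and 3.02-fold (log2 difference −1.59 ± 0.047, adjusted p = 3.1e-11), without overlap. At 4 hr it gave −0.21 (adjusted p = 0.0015) with KBrO3 alone and −0.16 (adjusted p = 0.0087) with co-exposure. BPA alone gave 0.32 (adjusted p = 0.52) at 4 hr and −0.0084 (adjusted p = 0.99) at 24 hr.

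The dimmer probes of Cxcl12 and Cxcl16 fell below control at 24 hr in the first set as the brighter ones did, by other amounts for Cxcl12, and departed from them at 4 hr. The dimmer Cxcl12 probe, annotated to transcript variant 1, read 4.57, 4.54 and 4.45 in controls, 3.08, 3.11 and 3.08 after KBrO3 alone at 4 hr and 1.83, 1.73 and 1.83 with co-exposure at 4 hr. Co-exposed arrays were thus below those of KBrO3 alone by 2.46-fold (log2 difference −1.30 ± 0.11, adjusted p = 2e-06), where the brighter probe gave 0.063 (adjusted p = 0.16) for the same comparison. At 24 hr the dimmer probe was 10.1-fold below control with KBrO3 alone and 9.67-fold below with co-exposure, larger falls than those of the brighter probe. On 1 array of BPA alone at 4 hr its spot was called an outlier and set aside. The other arrays of BPA alone read 3.68 and 4.02 at 4 hr and 3.66, 4.03 and 4.52 at 24 hr. Both groups spanned the second set's controls, which read 3.70 to 3.83 on this probe. The dimmer Cxcl16 probe read −0.95, −1.01 and −1.04 in controls, −1.91, −1.79 and −1.81 after KBrO3 alone at 4 hr and −0.94, −0.89 and −0.96 with co-exposure. It was 1.78-fold below control with KBrO3 alone (adjusted p = 1e-08) and 1.87-fold higher with co-exposure than with KBrO3 alone (adjusted p = 7.6e-08), where the brighter probe gave 0.053 (adjusted p = 0.36). Co-exposed arrays of this probe overlapped the controls. With BPA alone at 4 hr it read −1.30, −1.34 and −1.13 against −2.21, −2.15 and −1.94 in controls, above them all, with a log2 difference of 0.84 that did not pass (adjusted p = 0.051).

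**Figure D3:**
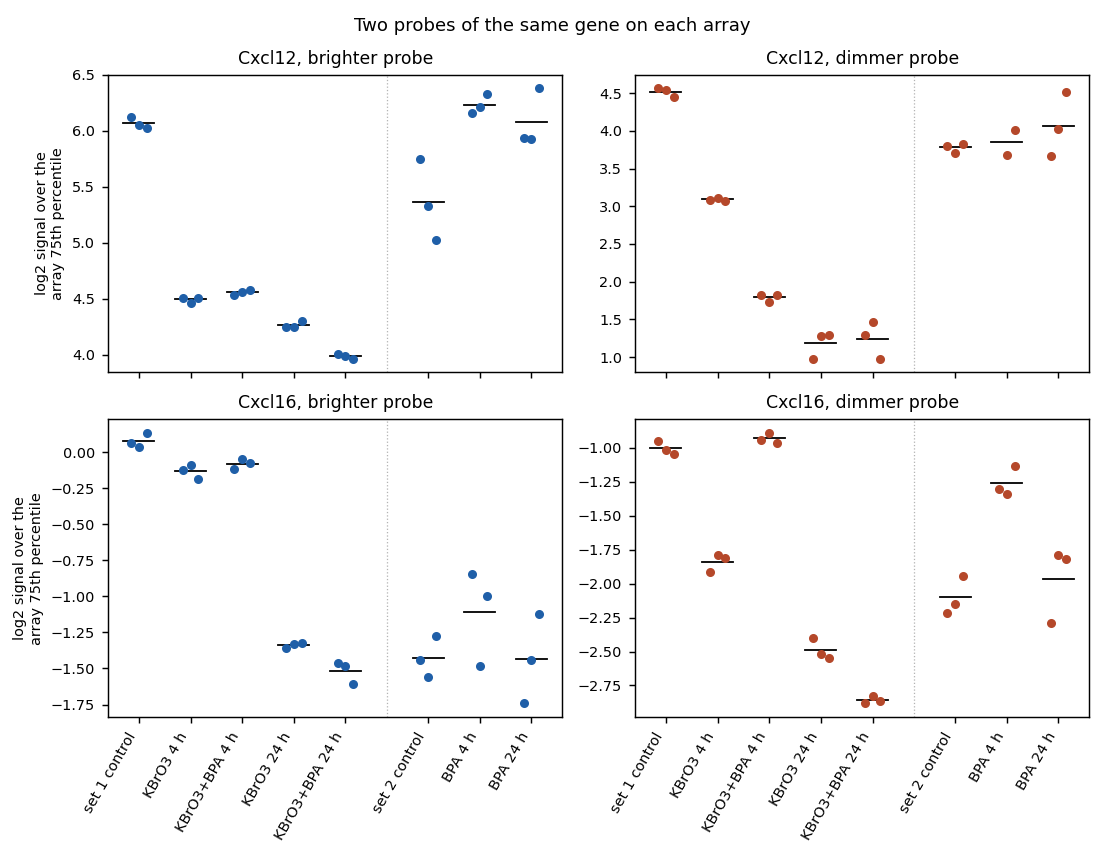
Level on each array, as log2 signal over the array's 75th percentile (vertical axes, a separate scale per probe), of the brighter and the dimmer probe of Cxcl12 and Cxcl16 by group (horizontal axis), with lines at the group means and a dotted line between the array sets. The dimmer Cxcl12 probe separates co-exposure from KBrO3 alone at 4 hr (means 1.79 and 3.09), which the brighter one does not (means 4.56 and 4.50).

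Whether BPA changed the response to KBrO3 was read from co-exposure against KBrO3 alone. At 4 hr 1 member rose and none fell, where 10.8% of genes rose and 9.07% fell. It was Cxcl9, 2.99-fold higher with BPA (log2 difference 1.58 ± 0.11, adjusted p = 4.2e-07), a call lost with normexp (0.62). The arrays of these groups lay on different slides at 4 hr, so that slide and BPA cannot be told apart there or in the change of the BPA effect with time. Cxcl1 was lower with BPA on every array, by less than 1.5-fold (log2 difference −0.58, adjusted p = 0.00011). It passed that limit when KBrO3 4 hr replicate 2 or co-exposure 4 hr replicate 1 was left out (both −0.59). Cxcl10 gave 0.14 (adjusted p = 0.065), Cxcl2 0.39 (adjusted p = 0.14), Cxcl3 0.53 (adjusted p = 0.00084), Cxcl5 0.32 (adjusted p = 0.021), Cxcl12 0.063 (adjusted p = 0.16), Cxcl14 −0.47 (adjusted p = 0.0032) and Cxcl16 0.053 (adjusted p = 0.36) on the log2 scale. At 24 hr 1 member rose and 3 fell, where 6.5% of genes rose and 7.66% fell. Cxcl10 was 2.35-fold higher with BPA (log2 difference 1.23 ± 0.062, adjusted p = 2.3e-08), Cxcl5 was 2.35-fold lower (log2 difference −1.23 ± 0.11, adjusted p = 1.9e-06) and Cxcl14 was 2.76-fold lower (log2 difference −1.47 ± 0.11, adjusted p = 5.8e-07). Cxcl2 also fell, to below background, by at least 1.04-fold (fitted log2 difference −1.57 ± 0.21, adjusted p = 8.2e-05), and with normexp and the floor this call was lost (−0.22). The other log2 differences at 24 hr did not meet the call and were −0.38 for Cxcl1, −0.51 for Cxcl3, −0.021 for Cxcl9, −0.28 for Cxcl12 and −0.18 for Cxcl16. Without co-exposure 24 hr replicate 3, Cxcl3 passed at −0.66, and it also passed with slide as a fixed block. The change of the BPA effect between the times passed for 6 members, against 26.9% of genes, upward for Cxcl10 (1.09 ± 0.088) and downward for Cxcl2, Cxcl3, Cxcl5, Cxcl9 and Cxcl14 (from −0.99 for Cxcl14 to −1.96 for Cxcl2, which was below background in co-exposed cells at 24 hr). Cxcl1 (0.20), Cxcl12 (−0.35) and Cxcl16 (−0.23) did not pass. With the mean of all probes of a gene, Cxcl16 passed (−0.75) and Cxcl12 turned to 0.51, short of 1.5-fold. With normexp, with or without the floor, Cxcl2, Cxcl9 and Cxcl14 lost this call, at −0.48, −0.49 and −0.44 with the floor.

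**Figure D4:**
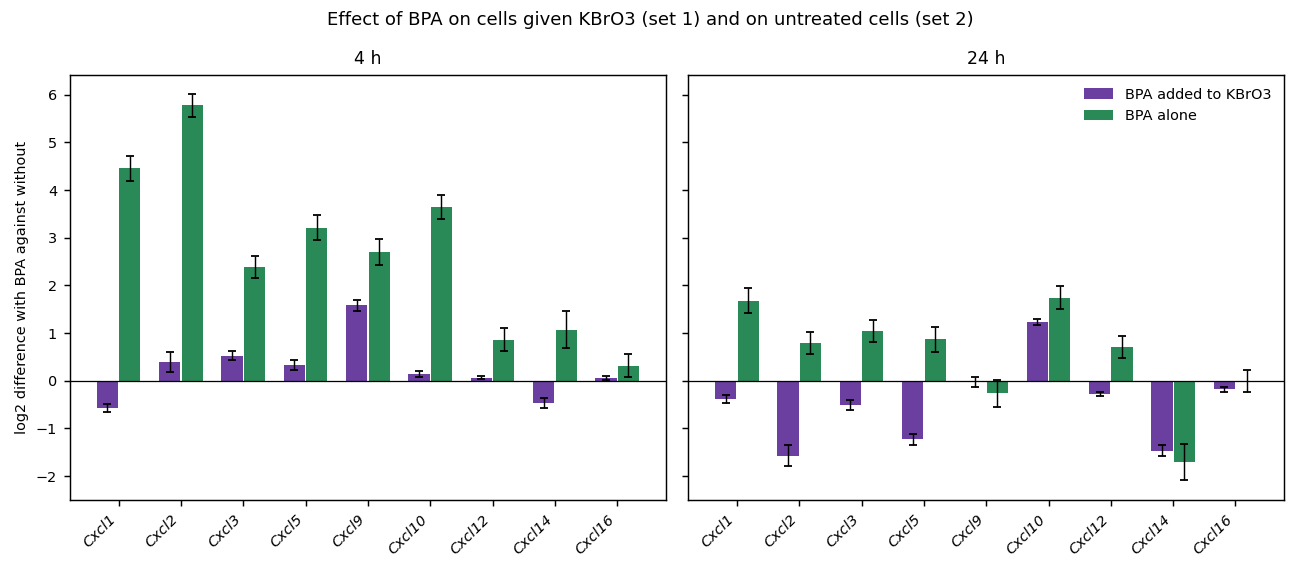
Log2 difference with BPA against without (vertical axis) for each chemokine (horizontal axis) at 4 hr and 24 hr, in cells given KBrO3 (co-exposure against KBrO3 alone, first set) and in cells not given it (BPA alone against control, second set), with bars for the standard error. At 4 hr the bars of BPA alone for Cxcl1, Cxcl2 and Cxcl10 reach 4.46, 5.78 and 3.64, while those of BPA added to KBrO3 are −0.58, 0.39 and 0.14. The Cxcl2 values rest on groups below background in the second set's controls and in co-exposure at 24 hr.

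The effect of BPA on top of KBrO3 was then set against that of BPA alone, with limma and a weight for each array set, as a difference of differences within the sets. At 4 hr the added effect was called lower for 8 of 9 members, against 9.28% of genes altered in either direction. The gap was −5.04 ± 0.27 on the log2 scale for Cxcl1 (adjusted p = 2.6e-09), −3.50 ± 0.22 for Cxcl10 (adjusted p = 2.4e-08) and −2.89 ± 0.32 for Cxcl5 (adjusted p = 1.4e-05), and it was −1.86 for Cxcl3 and −0.80 for Cxcl12. Cxcl2, counted among the 8, gave a fitted −5.39, which is no bound, with the second set's controls below background. Cxcl2 entered the tests across sets only through the second set's BPA groups, so that its calls there are no test of the gap. With normexp 3 of the 8 kept their call, Cxcl1, Cxcl5 and Cxcl10. With slide as a random block Cxcl9 and Cxcl14 lost theirs. Cxcl16 did not pass (−0.26, adjusted p = 0.42). The call for Cxcl9 (−1.13 ± 0.33, adjusted p = 0.042) was lost without any of 13 single arrays (the first set's control replicate 3, KBrO3 4 hr replicates 1 and 3, co-exposure 4 hr replicates 1 and 3 and 24 hr replicate 3, the second set's control replicates 1 and 3, BPA 4 hr replicates 1 to 3 and BPA 24 hr replicates 2 and 3), reaching −0.85 (adjusted p = 0.18) without the second set's control replicate 3, and that for Cxcl14 (−1.54 ± 0.39, adjusted p = 0.019) without any of 4, namely that array (−1.25), control replicate 2 of the set (−1.52) and BPA 4 hr replicates 2 (−1.41) and 3 (−1.58). At 24 hr 5 members passed, all with the lower added effect, against 3.3% of genes. They were Cxcl1 (−2.06 ± 0.27), Cxcl5 (−2.10 ± 0.32), Cxcl3 (−1.56 ± 0.29), Cxcl12 (−1.0 ± 0.17) and Cxcl2. The Cxcl12 call was lost with median scaling (−0.93) and with the mean of its probes (−0.61), and those of Cxcl12 and Cxcl3 with normexp. For Cxcl2 both the second set's controls and co-exposed cells were below background, so that its fitted −2.36 is not a measured difference, and it lost its call without any array of the second set but control replicate 1 and BPA 4 hr replicate 2 (−2.49 to −2.21). The gaps that did not pass at 24 hr were 0.24 for Cxcl9, −0.51 for Cxcl10, 0.24 for Cxcl14 and −0.17 for Cxcl16. Because BPA alone and BPA with KBrO3 were run in different array sets, the set cannot be told apart from the absence of KBrO3 in these tests.

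The untreated cells of the second set started lower than those of the first for 8 of the 9 members, where 28.3% of 14467 genes differed in either direction, and the members' median log2 difference was −2.47 against −0.057 for all genes. Cxcl1 was 13.8-fold lower (log2 difference −3.78 ± 0.19, adjusted p = 6.1e-11), Cxcl5 11.4-fold lower (log2 difference −3.51 ± 0.23, adjusted p = 2.4e-09) and Cxcl10 7.87-fold lower (log2 difference −2.98 ± 0.16, adjusted p = 1.2e-10). Cxcl2, not above background in the second set's controls, was at least 4.95-fold lower (fitted log2 difference −2.67 ± 0.40, adjusted p = 6.4e-05), a call lost with quantile normalization (−2.42) and with normexp (−1.12). No control array of the second set reached the lowest of the first for any of these 4 genes. Cxcl3 was 5.56-fold lower, Cxcl16 2.84-fold lower and Cxcl9 1.99-fold lower. For Cxcl9 the call was lost without the second set's control replicate 3 (−0.72, adjusted p = 0.056). Cxcl12 was 1.62-fold lower, a value of −0.70 that became 0.073 with quantile normalization over all arrays and −0.53, under 1.5-fold, without that same array. Cxcl14 did not pass (−0.71, adjusted p = 0.0503), but did without the second set's control replicate 1 (−1.03) and without any of 4 treated arrays (−0.71 each), namely BPA 24 hr replicate 3, KBrO3 24 hr replicate 2 and co-exposure 24 hr replicates 2 and 3. It also passed with median scaling, no filter on dim probes, error weights, no array weights or the mean of all probes (−0.74 to −0.71). In these bulk samples, fewer cells making a transcript and less transcript per cell cannot be told apart, and neither can culture, time, array set and software version.

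After BPA alone at 4 hr, Cxcl1, Cxcl5 and Cxcl10 stood at 4.91 ± 0.36, 5.49 ± 0.035 and 5.84 ± 0.11 (mean ± SD, n = 3), where the untreated cells of the first set stood at 4.23 ± 0.11, 5.79 ± 0.10 and 5.17 ± 0.06. These levels lie in different array sets and were not tested against each other.

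Between 4 and 24 hr most members fell within each treatment, in comparisons added after the values were seen. With KBrO3 alone 6 of 9 fell and none rose, against 48.1% of genes altered in either direction, with co-exposure 8 fell and none rose, against 57.7%, and with BPA alone 7 fell and none rose, against 4.34%. The 7 became 0 with normexp or with slide as a fixed block and 1 with the Bonferroni threshold. Cxcl1 fell by 13.8-fold with KBrO3 alone, 12.1-fold with co-exposure and 6.87-fold with BPA alone. Cxcl10 fell by 5.03-fold with KBrO3 alone, 2.37-fold with co-exposure and 3.72-fold with BPA alone. Cxcl9 fell by 7.83-fold with BPA alone and 2.39-fold with co-exposure, the latter a call lost with normexp, and Cxcl14 by 6.88-fold with BPA alone. Cxcl3 fell by 2.53-fold with BPA alone (−1.34 on the log2 scale), a call lost without BPA 4 hr replicate 1 (−1.39), 2 (−1.23) or 3 (−1.40) or BPA 24 hr replicate 2 (−1.32). Cxcl5 fell by 2.58-fold with KBrO3 alone, 7.6-fold with co-exposure and 5.07-fold with BPA alone, and Cxcl2 by 4.77-fold with KBrO3 alone, at least 6.53-fold with co-exposure and 31.7-fold with BPA alone. Cxcl14 fell by 20.8-fold and 41.5-fold and Cxcl16 by 2.3-fold and 2.71-fold with KBrO3 alone and co-exposure, and Cxcl3 by 2.32-fold with co-exposure. The remaining log2 differences did not meet the call and were −0.18 for Cxcl3, 0.34 for Cxcl9 and −0.22 for Cxcl12 with KBrO3 alone, −0.57 for Cxcl12 with co-exposure, and −0.15 for Cxcl12 and −0.32 for Cxcl16 with BPA alone. With KBrO3 alone the mean of both Cxcl12 probes passed (−1.07), and the dimmer probe's mean level went from 3.09 to 1.18. With co-exposure the fall of Cxcl12 passed with slide as a fixed block and with normexp and the floor.

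Groups share slides only in part, so differences were also taken within slides that held both groups. KBrO3 alone at 4 hr against the control of its slide gave 2.36 for Cxcl1, 2.09 for Cxcl2, 1.95 for Cxcl10 and −1.53 for Cxcl12 on the log2 scale. BPA alone at 4 hr gave 4.17 for Cxcl1, 2.35 for Cxcl3, 3.48 for Cxcl5, 2.68 for Cxcl9 and 3.71 for Cxcl10. At 24 hr, within the slides that held both groups, BPA alone gave 1.49 and 2.04 for Cxcl1, 1.61 and 2.06 for Cxcl10, 1.31 and 1.07 for Cxcl3 and −1.91 and −1.60 for Cxcl14. Co-exposure against KBrO3 alone at 24 hr gave 1.30 for Cxcl10, −1.29 for Cxcl5 and −1.32 for Cxcl14. Every one of these values has the direction of the value over all slides. KBrO3 alone at 24 hr and co-exposure at either time shared no slide with a control. At 4 hr all arrays of KBrO3 alone were on 1 slide and all of co-exposure on another. For these comparisons the treatment cannot be told apart from the slide.

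Of 8 CXC receptors, 5 were tested with BPA alone and 1 passed, at 4 hr, where 3.06% of all genes rose, namely Ackr3, the scavenging receptor of Cxcl12, which read 0.95, 1.02 and 0.59 in controls and 2.25, 2.23 and 2.23 at 4 hr, a rise of 2.61-fold (adjusted p = 0.014). With KBrO3 Ackr3 fell at 24 hr, 4.71-fold with KBrO3 alone and 6.95-fold with co-exposure. Cxcr6, the receptor of Cxcl16, rose at 4 hr from −5.16, −5.57 and −4.61, with 2 of 3 controls above background, to −2.16, −2.05 and −2.26 with KBrO3 alone (7.76-fold) and −2.26, −2.35 and −2.11 with co-exposure (7.34-fold), and was at least 1.11-fold below control with co-exposure at 24 hr. Cxcr3, the receptor of Cxcl9 and Cxcl10, was above background on all arrays of co-exposure at 4 hr and on no control of the first set, and it entered the test only through that group, so that no test of its rise is given. Cxcr4, the signaling receptor of Cxcl12, passed the filter in the second set only, where it gave −0.34 at 4 hr (adjusted p = 0.71). Ackr1 did not differ from control by the call used in any treatment. Leaving out Cxcr3, the 3 receptors tested in the first set were Ackr1, Ackr3 and Cxcr6. Of these 1, Cxcr6, rose at 4 hr with KBrO3 alone and with co-exposure, against 20.9% and 28.1% of all genes.

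Among 6 further CXC ligands, Cxcl11, which shares Cxcr3 with Cxcl9 and Cxcl10, was higher with BPA. It read −6.14, −7.33 and −7.11 in the second set's controls, where 2 arrays were above background, and −2.90, −1.88 and −2.33 with BPA alone at 4 hr, every array of BPA above every control. It entered the second set's test only through the BPA groups, so that no test of this difference is given. In the first set it read −2.99, −2.90 and −3.14 in controls, −3.28, −3.20 and −3.19 after KBrO3 alone at 4 hr and −0.99, −1.04 and −1.03 with co-exposure, a rise of 3.98-fold with co-exposure. The probe for Cxcl15 fell 2.21-fold with co-exposure at 4 hr and, at 24 hr, 16.7-fold with KBrO3 alone and 25.1-fold with co-exposure, and Pf4, platelet factor 4, fell 3.42-fold with BPA alone at 24 hr. Of the 4 tested in the first set, none passed with KBrO3 alone at 4 hr. With co-exposure at 4 hr 1 rose and 2 fell, against 28.1% and 26.6% of all genes. At 24 hr 3 fell with KBrO3 alone, against 21%, and 1 rose and 3 fell with co-exposure, against 15.7% and 23.9%. Of 5 tested in the second set, Cxcl11 included, 1 rose and 2 fell with BPA alone at 24 hr, against 1.81% and 2.51%.

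Genes that act upstream of the chemokines were counted from lists. Of 15 subunits, inhibitors and feedback regulators of NF-kB, 9 rose and none fell with BPA alone at 4 hr, against 3.06% and 1.64% of all genes, with a median log2 difference of 1.60 against −0.056. Nfkbiz, a nuclear cofactor of NF-kB, rose 8.63-fold and Tnfaip3, the feedback inhibitor A20, 7.73-fold. At 24 hr 1 of the 15 rose, Bcl3 (2.97-fold), against 1.81% of all genes. Of the 14 tested in the first set, 5 rose and 3 fell with KBrO3 alone at 4 hr, against 20.9% and 23.1% of all genes, among them Nfkbiz (2.3-fold higher) and the inhibitor Nfkbia (2.06-fold higher), while Bcl3 was 3.9-fold lower. Co-exposure at 4 hr gave the same counts, against 28.1% and 26.6% of all genes. With KBrO3 alone at 24 hr 2 rose and 3 fell, and with co-exposure at 24 hr 3 rose and 5 fell, against 12.7% and 21%, and 15.7% and 23.9%, of all genes. In untreated cells 11 of 14 were lower in the second set than in the first, where 28.3% of all genes differed in either direction, with a median of −1.10 against −0.057.

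For the lists that follow, the shares of all genes that rose and fell were 3.06% and 1.64% with BPA alone at 4 hr, 20.9% and 23.1% with KBrO3 alone at 4 hr, 28.1% and 26.6% with co-exposure at 4 hr and 12.7% and 21% with KBrO3 alone at 24 hr. Of 9 upstream cytokines and Toll-like receptors tested, 3 rose with BPA alone at 4 hr, led by Il6 (50.6-fold), the cytokine interleukin-6, and Tlr2 (6.07-fold). With KBrO3 alone at 4 hr 3 rose and 3 fell, with Tnf 5.29-fold and Il6 3.74-fold higher and Tlr4, the receptor of lipopolysaccharide, 5.93-fold lower, and with co-exposure at 4 hr 5 rose and 3 fell. Of 11 interferon-linked regulators, 2 rose with BPA alone at 4 hr, Ifnb1, which encodes interferon beta (6.48-fold), and the transcription factor Irf1 (2.98-fold). None rose and 5 fell with KBrO3 alone at 4 hr, and 2 rose and 4 fell with co-exposure at 4 hr, with Irf1 1.67-fold and Ifnb1 1.64-fold higher. At 24 hr Ifnb1 was 6.05-fold below control with KBrO3 alone and 6.98-fold below with co-exposure. Among 8 regulators of chemokine mRNA stability, BPA alone at 4 hr raised 1, Zc3h12a, an endonuclease that degrades cytokine mRNA (7.13-fold), and KBrO3 alone at 4 hr raised 4 and lowered 1, with Zfp36l2 3.12-fold and Zfp36, the mRNA-destabilizing protein tristetraprolin, 2.11-fold higher. Of 5 proteases tested that act on chemokines, none passed with BPA alone at 4 hr and 3 fell with KBrO3 alone at 24 hr, led by Mmp2 (3.11-fold lower).

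Markers of cell types moved with some of these results. The summed leukocyte markers were 0.513 to 0.628 in the first set's controls, 1.63 to 1.74 with KBrO3 alone at 4 hr and 2.07 to 2.25 with co-exposure at 4 hr, in the same groups in which Cxcl1, Cxcl2 and Cxcl10 rose, and 0.365 to 0.468 in the second set's controls against 0.386 to 0.441 with BPA alone at 4 hr. Of the 5 leukocyte markers tested in the first set, 4 of them above background on all of its controls, 3 rose with KBrO3 alone and 4 with co-exposure at 4 hr, against 20.9% and 28.1% of all genes, and of the 10 tested in the second none passed with BPA alone. Of 12 fibroblast markers, 10 fell with KBrO3 alone at 24 hr and 10 with co-exposure at 24 hr, against 21% and 23.9% of all genes, in the same groups in which Cxcl5, Cxcl12, Cxcl14 and Cxcl16 fell, and 8 were lower in the second set's controls than in the first set's, where 28.3% of all genes differed in either direction. With co-exposure at 4 hr, where Cxcl12 and Cxcl14 fell, 5 of the 12 fell, against 26.6% of all genes, and with KBrO3 alone at 4 hr 1 fell. With BPA alone at 4 hr none of the 12 passed. The summed levels of 6 endothelial and 7 epithelial markers were at most 0.244 and 0.672 on any array. At 4 hr 1 of 2 endothelial and 2 of 4 epithelial markers tested in the first set rose with KBrO3 alone, against 20.9% of all genes. With co-exposure the same numbers rose and 1 epithelial marker fell, against 28.1% and 26.6%. The part of these markers in the chemokine results was not tested.

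The genes whose pattern over the 24 arrays, each relative to the controls of its set, was most like that of Cxcl1 were Ccl7 (r = 0.976), Il6 (r = 0.974) and Junb (r = 0.972) among 14354 genes. For Cxcl10 they were Hcar2 (r = 0.961) and Nfkbiz (r = 0.944), and for Cxcl12 they were Ugcg (r = 0.986), Rnf150 (r = 0.986) and Lnx1 (r = 0.971). These are Pearson's r over arrays that fall into groups and share controls, given as a description.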

How the data were processed

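RNA from Ku70-/- MEFs was labeled with Cy3 and hybridized to Agilent Whole Mouse Genome 4 x 44 one-color arrays. The authors deposited the scanner output per spot as fluorescence intensity, which the software had detrended and background-subtracted without normalization between arrays. The submitters' processing notes name Agilent Feature Extraction 12.0, while the file headers give 9.5.3.1 for the first set, with probe positions on mm7, and 12.0.0.7 for the second, with mm9. All 1080432 values of the deposited series table equal that processed signal within 1e-06 of the value. Signals were taken as log2 minus each array's 75th percentile in R 4.3.3, control and outlier spots were left out, and spots of a probe were averaged. Probes were named from the first set's files and RefSeq (GRCm38.p6), which matched 32716 of 41174 (22944 by accession, 6664 by symbol and 3108 by synonym). A probe was tested if well above background on all arrays of at least 1 group of its set, and all 9 members passed in both sets. Each set was fitted with limma 3.58.1 (lmFit, eBayes), two-sided, with all groups of the set and Benjamini-Hochberg adjustment over all probes tested. Comparisons across sets used all 24 arrays with 1 weight per set (2.30 and 0.250, from arrayWeights). The study's own threshold, Bonferroni-adjusted p below 0.01 with 1.5-fold, was an alternative. Of several probes for a gene, the one brightest on average stands for it, and each member is named in every comparison. Of the lists, every receptor above background in at least 1 whole group is named, and of the others the 2 largest rises and the largest fall per treatment, of which the text gives a selection; some named genes are not reported here. Members, lists and motifs were chosen with earlier results of these data known. Tables, sequences and plots were handled with Python 3.11.15, numpy 2.4.6, pandas 2.3.3 and matplotlib 3.10.9, and in R with the data.table package, version 1.17.8. The steps were tested on simulated data. The normexp alternative used the mean raw signal in the first set and the median in the second, whose files lack the mean, so that its values across sets mix both. Other scalings, background corrections, filters, weights, blocks, fits and single arrays left out were tried as alternatives.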

Additional observations from a re-analysis of the deposited data

Results flagged for a closer look

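The results listed here are those in which the effect of 1 contrast differed between conditions by a test of the difference itself. For Cxcl2 the values across sets are listed by the same rule but are no test. It entered the second set only through the BPA groups. All are log2 values from limma. For BPA added to KBrO3 minus BPA alone at 4 hr, the differences were −5.04 for Cxcl1, a fitted −5.39 for Cxcl2, whose second-set controls were below background, −1.86 for Cxcl3, −2.89 for Cxcl5, −1.13 for Cxcl9, −3.50 for Cxcl10, −0.80 for Cxcl12 and −1.54 for Cxcl14. At 24 hr they were −2.06 for Cxcl1, a fitted −2.36 for Cxcl2, which rests on groups below background, −1.56 for Cxcl3, −2.10 for Cxcl5 and −1.0 for Cxcl12. The effects set against each other come from different array sets, which cannot be told apart from the presence of KBrO3.

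Within the first set, the effect of adding BPA to KBrO3 changed from 4 to 24 hr by 1.09 for Cxcl10, −0.99 for Cxcl14, −1.96 for Cxcl2, −1.04 for Cxcl3, −1.56 for Cxcl5 and −1.60 for Cxcl9. For some members all 3 arrays lay above all controls at 4 hr and all 3 below them at 24 hr, or the reverse, and the times differed by the call used. With KBrO3 alone the difference of 24 hr from 4 hr was −3.79 for Cxcl1 and −2.33 for Cxcl10, whose 24 hr level did not meet the call against control (−0.45). With co-exposure it was −3.60 for Cxcl1, −4.21 for Cxcl2, at least 6.53-fold lower since the 24 hr arrays were not above background, −1.21 for Cxcl3, which did not meet it at 24 hr (−0.56), and −2.93 for Cxcl5, which did not at 4 hr (0.24). With BPA alone it was −2.78 for Cxcl14, whose 4 hr level did not pass against control (1.07, adjusted p = 0.17).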

How the results depend on the processing

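Counts are of altered members among 9. For BPA alone at 24 hr the count of 4 became 2 with median scaling, no filter or the replicate block, 0 with normexp, the Bonferroni threshold, slide as a fixed block or only the groups compared, and 7 with all 24 arrays in 1 fit. For BPA alone at 4 hr the count of 6 became 3 with normexp or Bonferroni and 0 with slide as a fixed block, which leaves 2 residual degrees of freedom. For 24 against 4 hr of BPA alone, 7 became 0 with normexp or the slide block and 1 with Bonferroni. In the first set Bonferroni also lost Cxcl3 with co-exposure at 4 hr and Cxcl2 with co-exposure at 24 hr against control and KBrO3. Co-exposure against KBrO3 at 4 hr, 1 in the main analysis, gave 3 with median scaling, 0 with normexp or where every array had to be above background (7 members left), and 2 with slide as a random block or the mean of all probes. The change of the added BPA effect, 6, became 3 with normexp, with or without the floor, and with Bonferroni. BPA added minus alone gave 3 with normexp and 4 with Bonferroni at 4 hr (8 before), and 2 and 0 at 24 hr (5 before). The untreated groups gave 5 with either (8 before). Single arrays left out gave 1 to 2 for co-exposure against KBrO3 at 4 hr, 2 to 4 for BPA at 24 hr, 6 (without the second set's control replicate 3) to 9 for the untreated groups and 6 to 8 for BPA added minus alone at 4 hr. A reversal is counted here where the main analysis or the alternative called the difference. Some differences called in neither changed sign too, among them Cxcl2 with BPA alone at 24 hr and Cxcl9 with KBrO3 alone at 4 hr. With normexp, differences reversed for Cxcl2 with KBrO3 at 4 hr (−0.16) and BPA added minus alone at 24 hr (0.65). For Cxcl9 they reversed, also with normexp, with KBrO3 at 24 hr (−1.33) and co-exposure at 4 hr (−0.36) and 24 hr (−1.19). Spots far below their local background moved the normexp fit on several arrays, most on the first set's control replicate 2, the second set's control replicate 1 and BPA 4 hr replicate 3, and with each array's lowest 0.1% raised to that percentile, an alternative chosen after seeing the data, these 5 values were 1.07, −0.23, −0.052, 0.77 and 0.085. Cxcl12 reversed in the untreated comparison with quantile normalization (0.073) and in co-exposure against KBrO3 at 4 hr with the mean of all probes (−0.62), where its probes differ. Other causes were not tested. Slide as a fixed block was not run for KBrO3 alone at 24 hr or co-exposure at either time against control, co-exposure against KBrO3 at 4 hr, 24 against 4 hr of KBrO3 alone, the change of the added BPA effect, BPA added minus alone at 4 hr or the untreated groups, since slide and group could not be separated there. Median scaling moved the median of all genes by up to 0.46 (24 against 4 hr of co-exposure). The replicate numbers did not pair the arrays (mean correlation −0.029 and 0.0020), and the replicate block changed no other count by over 1.5 times. Dim signals limit Cxcl2 and Cxcl9.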
